A study of Mus musculus with 8 samples.

Results

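Clcn7, Cd68, Vmp1 and Atg16l1 are 4 genes of the lysosome and of autophagy that were chosen because their splicing differed between Srsf3-deleted and control hepatocytes. Every row that named one of them was taken from both deposited tables. This gave 7 local splicing variations with 19 junctions and introns, out of 862 variations with 6866, and 4 of 498 events of junction usage. The tables named 638 genes in all. The 4 genes were picked from the values given here, so these values describe them and no test of them was made.

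The cells were hepatocytes, the parenchymal cells of the liver, from C57BL/6J mice with floxed Srsf3 alleles, grown in culture. Infection lasted 48 h, with adeno-associated virus for Cre recombinase (AAV-Cre, genotype Srsf3-KO, 4 libraries) or for green fluorescent protein (AAV-GFP, genotype Srsf3-flox, 4 libraries). Both groups carried the floxed alleles and a virus, and the labels give no age of the mice and no promoter of the virus. The question was which transcripts are spliced differently once SRSF3, an RNA-binding SR protein that regulates splicing, is lost. Srsf3 itself, checked first, joined exon 1 to exon 2 at a percent spliced in (PSI) of 0.998 in AAV-GFP cells and 0.157 in AAV-Cre cells, in the direction of the labels, and some intact junction was left in AAV-Cre cells. Both tables give 1 value per group or comparison, from the authors, and no SD or depth can be given here. Neither table holds expression levels, so hepatocyte markers could not be checked. None of 12 hepatocyte markers (11 of them found by symbol in the annotation) and 1 of 15 Kupffer cell and macrophage markers, Cd68 itself, was listed in either table.

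Lysosomes are acidic organelles that break down cargo from endocytosis and autophagy. In autophagy a membrane grows from the endoplasmic reticulum, closes around cytoplasm and fuses with lysosomes, a route that hepatocytes use to recycle protein and lipid when they are starved. Clcn7 is a chloride and proton exchanger of the lysosomal membrane that works with its partner Ostm1, and Cd68 is a glycosylated lysosomal membrane protein best known as a marker of macrophages. Vmp1 is a protein of the endoplasmic reticulum needed early in autophagosome formation. Atg16l1 binds Atg5 joined to Atg12 and sets where the LC3 proteins are attached to the membrane. PSI is here the share, from 0 to 1, that a junction or retained intron takes among all those that leave or enter the same exon. The PSI values of 1 variation therefore add up to 1, and a rise of 1 junction means a fall of another.

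Sequences at the places where the junctions moved are shown first, because they let the events be read at the level of bases. They come from GENCODE vM21 transcripts (GRCm38, the same assembly as mm10), run 5' to 3' on the strand of the gene, and give exon 17 of Clcn7 and exons 8 and 9 of Atg16l1. Capitals mark pentamers with C at the second and the fifth base and A or T at each of the others, such as TCTTC or ACATC. This set is described for SRSF3, was searched on the RNA strand only, and matches that overlap run together.
Clcn7 exon 17, chr17:25155368-25155537, plus strand: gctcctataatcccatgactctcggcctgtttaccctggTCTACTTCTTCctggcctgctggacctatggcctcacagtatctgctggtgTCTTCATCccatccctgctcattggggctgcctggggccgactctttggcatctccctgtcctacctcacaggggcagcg
Atg16l1 exon 8, chr1:87774813-87774869, plus strand: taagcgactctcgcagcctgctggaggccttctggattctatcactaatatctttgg
Atg16l1 exon 9, chr1:87775081-87775128, plus strand: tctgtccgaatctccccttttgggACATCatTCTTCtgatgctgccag

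Exon 17 of Clcn7 held 5 such pentamers in 170 nt, where 78.1% of 26108 annotated internal exons of a length within 10% held at least 1 and the mean was 1.73. Exon 8 of Atg16l1 held none in 57 nt, where 37.2% of exons of like length held 1 or more, and the mean was 0.501. Exon 9 held 2 in 48 nt, where the share was 32.3% and the mean 0.409. Exon 2 of Cd68 held 2 in 434 nt, where 95.1% of exons of like length held at least 1 and the mean, 3.91, was higher. The pentamers thus were not found in every exon of these genes that was used less in AAV-Cre cells. A match describes letters only and shows no binding.

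Clcn7 had the most affected transcript of the 4 genes, with 4 variations in 3 places: the first exon, the start of exon 16, and exon 17. Its largest deposited change, 0.702 in the authors' deposited table, ranked 19 of 354 listed genes. Vmp1 ranked 93 with 0.408, Atg16l1 165 with 0.322, and Cd68 349 with 0.202, all in the authors' deposited table. The median over the 354 genes was 0.31. All 7 variations of the 4 genes reached a change of 0.2, beside 95.2% of all 862 variations and 100.0% of the genes, so the table holds almost only changed variations and nothing is read from the count. Cd68 lay just inside this threshold, and the nearest variation outside it, in Gm26870, had 0.196.

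**Figure D1:**
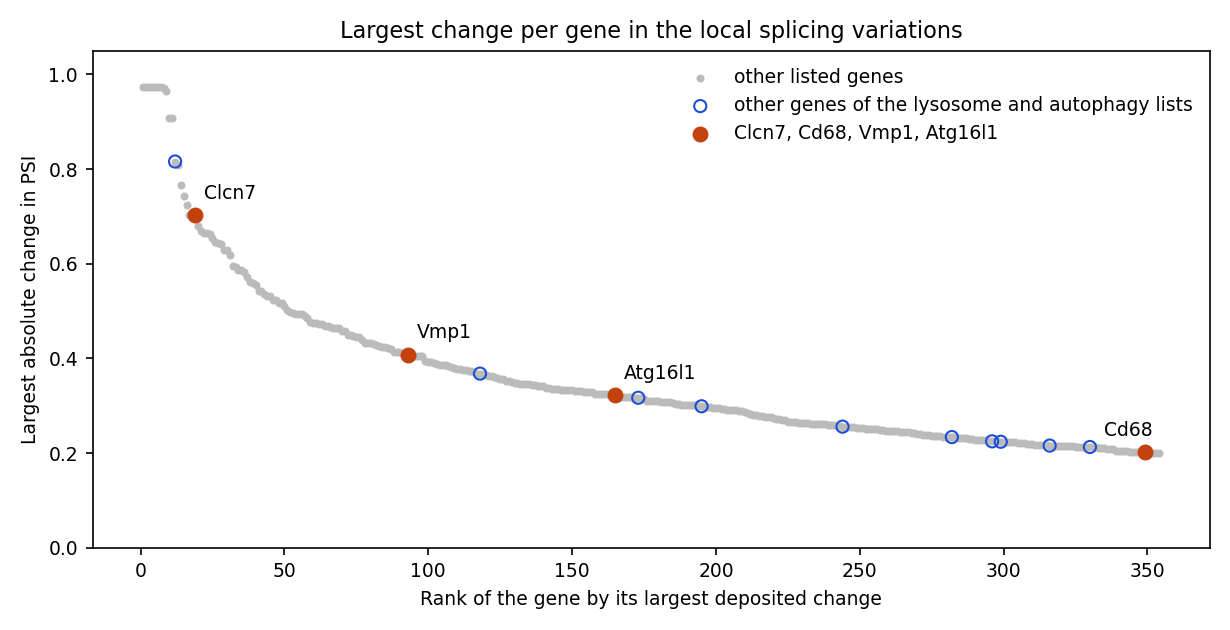
Each point is 1 of the 354 genes with local splicing variations, ranked on the x axis by its largest absolute deposited change in PSI (y axis); filled points are the 4 genes and open circles the other genes of the lysosome and autophagy lists. Clcn7 sits near the top at 0.702 and Cd68 near the lower end at 0.202.

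In Clcn7 the first exon switched. Clcn7 (ENSMUSG00000036636.9, chromosome 17, 25133391 to 25162104, plus strand) has an upstream first exon (25133391 to 25133614) and a downstream one (25136622 to 25136763) that opens another annotated transcript of this gene. The junction from the upstream first exon to exon 2 had a PSI of 0.813 in AAV-GFP cells and 0.260 in AAV-Cre cells. The junction from the downstream first exon had 0.187 and 0.740. The upstream exon was thus the main one in AAV-GFP and the downstream one in AAV-Cre. For the same pair of junctions, the usage event in the authors' deposited table had a change of 0.606 towards the downstream exon (p = 1.04e-05, q = 0.00464), and 8.23% of the events in its class passed. That table lists the pair as an alternative 5' splice site. The 2 donor sites lie 3149 nt apart and end different annotated first exons, so the event is a choice of first exon, which in the annotation goes with a separate transcript start.

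The coding parts of both first exons are shown because they give the protein different N-termini.
Clcn7 upstream first exon, chr17:25133477-25133614, plus strand: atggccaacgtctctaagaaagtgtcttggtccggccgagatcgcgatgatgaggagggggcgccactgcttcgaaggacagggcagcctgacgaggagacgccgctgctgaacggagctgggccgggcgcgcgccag
Clcn7 downstream first exon, chr17:25136686-25136763, plus strand: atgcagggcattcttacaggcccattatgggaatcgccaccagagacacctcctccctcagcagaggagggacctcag
Each starts at its own annotated start codon and ends at the junction with exon 2. The upstream part holds 46 codons and the downstream part 26, both without a remainder, so exon 2 is read in the same frame after either. The annotated open reading frames are 803 and 783 codons long.

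At exon 16 of Clcn7, an acceptor 13 nt further downstream held a larger share in AAV-Cre cells. Joining of exon 15 to the annotated start of exon 16 (25153154 to 25153732) had a PSI of 0.983 in AAV-GFP cells and 0.482 in AAV-Cre cells. The junction to the shorter exon (25153154 to 25153745) had 0.014 and 0.516. It was almost unused in AAV-GFP cells and about as frequent as the annotated one in AAV-Cre cells. The junction to the longest form of exon 16, which starts at 25153561, had 0.003 in both groups. The junction to the shorter exon is not in GENCODE vM21. The usage event in the authors' deposited table had a change of 0.516 towards the shorter exon with p = 0.00761, which did not pass after adjustment (q = 0.279).

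The bases around both acceptors are shown because they lie so close together.
Clcn7 acceptors of exon 16, chr17:25153702-25153774, plus strand: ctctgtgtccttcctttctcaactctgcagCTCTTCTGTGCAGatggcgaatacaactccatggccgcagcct
Capitals mark the 13 nt that the downstream acceptor removes from the exon. Both acceptors end in the same letters, tgcag, and the removed stretch opens with a run of pyrimidines and holds 1 of the pentamers, TCTTC.

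Exon 17 of Clcn7 (25155368 to 25155537, 170 nt, coding) was mostly included in AAV-GFP and mostly skipped in AAV-Cre. Among junctions that leave exon 16, the one to exon 17 had a PSI of 0.996 in AAV-GFP cells and 0.346 in AAV-Cre cells. The one to exon 18 had 0.002 and 0.641, and the one to exon 19 had 0.002 and 0.013. For the junction to exon 19 the change in the authors' deposited table was 0.0. Seen from exon 18, the junction from exon 16 had 0.004 and 0.710, and that from exon 17 had 0.996 and 0.290. Both views gave the same direction, and skipping of exon 17 alone was far more frequent than skipping of exons 17 and 18 together. The junctions from exon 16 to exon 18 and to exon 19 are not in GENCODE vM21. Exon 17 as a cassette in the authors' deposited table of usage had a change of -0.539 (p = 0.00128) that did not pass after adjustment (q = 0.108).

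**Figure D2:**
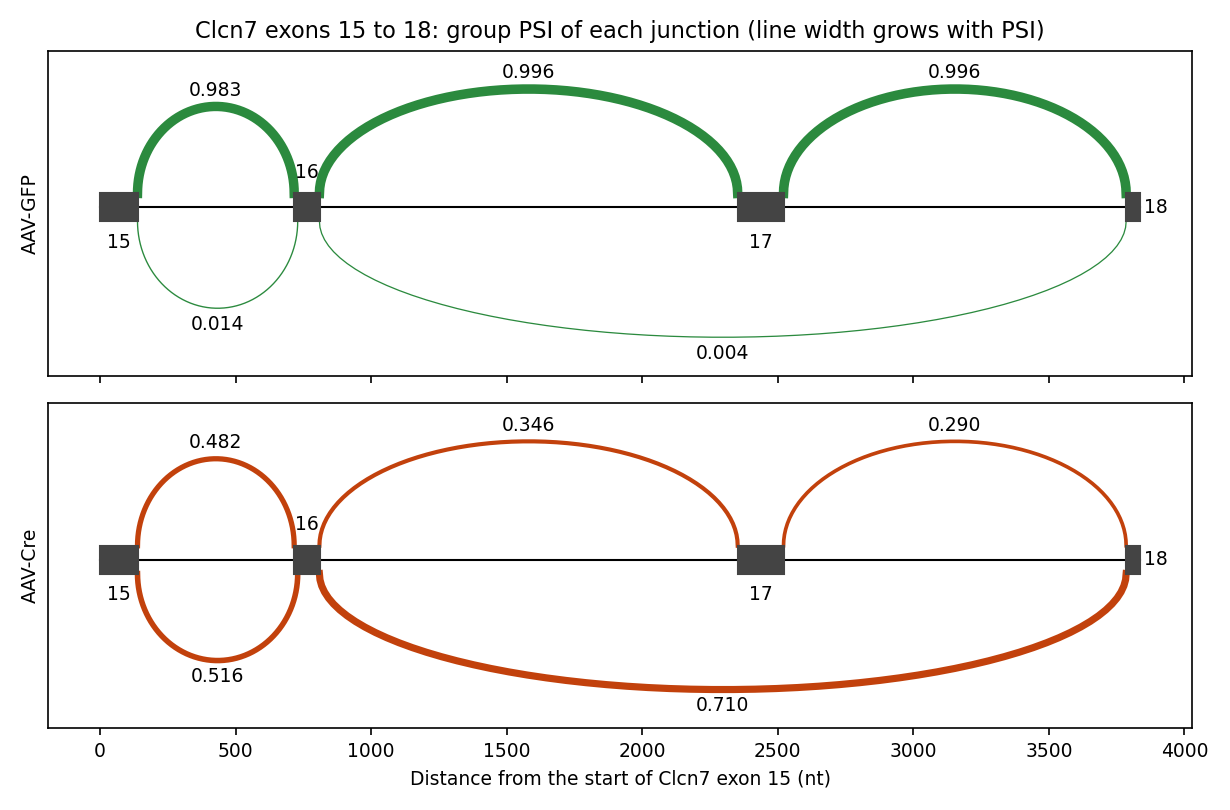
Map of Clcn7 exons 15 to 18 (boxes) by distance in nt from the start of exon 15, with AAV-GFP above and AAV-Cre below; arcs are junctions, labelled with the group PSI that also sets their width. Arcs under the line, the shorter exon 16 and the skip of exon 17, had 0.014 and 0.004 in AAV-GFP and 0.516 and 0.710 in AAV-Cre.

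The 2 neighbouring changes in Clcn7 differ in what they do to the reading frame. Removal of exon 17 (170 nt, remainder 2 after division by 3) from the main annotated transcript, with 25 exons, brings a stop codon 17 nt after the new junction, in exon 18 and 697 nt before the last exon junction. Removal of the 13 nt alone (remainder 1) brings a stop 96 nt after the change, in exon 17 and 869 nt before the last junction. Both together remove 183 nt without a remainder, and the frame then runs to the annotated stop in exon 25, with 742 in place of 803 codons. These lengths are for the transcript with the upstream first exon, whose junction had a PSI of only 0.260 in AAV-Cre cells. As background, a stop codon far before the last exon junction commonly exposes an mRNA to nonsense-mediated decay. The tables do not say whether the same molecules carried the shorter exon 16 and the skip of exon 17, so these are readings of the annotated sequence and not measurements of protein.

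**Figure D3:**
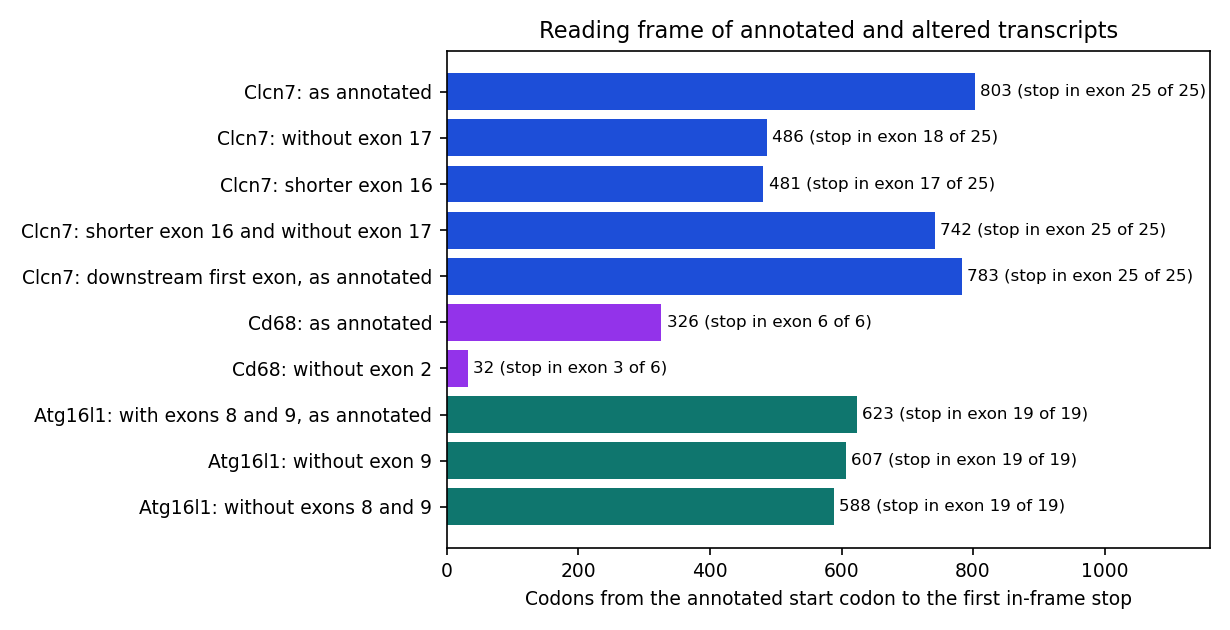
Bars give the number of codons from the annotated start codon to the first in-frame stop for annotated transcripts and for the same transcripts with the named exon or 13 nt removed; labels give the exon with the stop. With the upstream first exon, skipping Clcn7 exon 17 alone gives 486 codons and both Clcn7 changes together 742. Cd68 without exon 2 gives 32, and the 3 forms of Atg16l1 stay between 588 and 623.

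Cd68 (ENSMUSG00000018774.13, chromosome 11, 69664213 to 69666153, minus strand) skipped its exon 2 more often in AAV-Cre cells, by a modest amount. Joining of exons 2 and 3 (69665366 to 69665503) had a PSI of 0.975 in AAV-GFP cells and 0.779 in AAV-Cre cells. The junction from exon 1 directly to exon 3 had 0.025 and 0.195, and this junction is annotated in a transcript without a coding frame. Exon 2 thus still held most of the share in both groups, and the difference of its PSI values, -0.196, was just under 0.2 in size where the change of -0.202 in the authors' deposited table was just over it. Retention of the 109 nt intron between exon 3 and a longer, annotated form of exon 2 had 0 and 0.025, and the junction from that longer exon had 0 and 0.001. For both, the change in the authors' deposited table was 0.0. Exon 2 as a cassette, in the authors' deposited table of usage, had a change of -0.106 (p = 7.54e-05, q = 0.0178), which passed. Of 131 listed cassette exons, 8.4% passed as lower in AAV-Cre.

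The 3 joins of Cd68 are shown with 20 nt on each side and exon 2 in capitals, because they are what the junction reads distinguish.
Cd68 exon 1 to exon 2: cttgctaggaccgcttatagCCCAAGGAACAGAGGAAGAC
Cd68 exon 2 to exon 3: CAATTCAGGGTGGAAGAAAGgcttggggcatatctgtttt
Cd68 exon 1 to exon 3: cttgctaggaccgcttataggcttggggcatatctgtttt
Exon 2 (69665503 to 69665936) is 434 nt long and coding. Its removal leaves a frame of 32 codons in place of 326, with the stop in exon 3 of 6 and 317 nt before the last exon junction. Cd68 marks macrophages, which can remain among cultured hepatocytes. Which cells gave the Cd68 reads was not tested, since no expression levels are given. The other 14 markers of the list were in neither table, and a listing would show a splicing difference only.

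Vmp1 (ENSMUSG00000018171.9, chromosome 11, 86583865 to 86683836, minus strand) differed between the groups in how its exon 11 was entered. The junction between exons 10 and 11 (86586598 to 86602008) had a PSI of 0.611 in AAV-GFP cells and 0.212 in AAV-Cre cells. The rest was read through a segment of 73 nt just before exon 11 (86586599 to 86586671), listed as a retained intron, which had 0.389 and 0.788. The order of the 2 routes was thus reversed between the groups. Intron 10 is 15409 nt long, so the 73 nt are only its last part. In GENCODE vM21 the segment lies inside the first exon of a noncoding transcript (86586496 to 86586994), and it borders on the first exon of another one (86586672 to 86586881), which does not use exon 11. Both transcripts start within intron 10. Reads from transcripts that start there and reads from unspliced Vmp1 RNA cannot be told apart in these tables. No event of junction usage named Vmp1.

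The segment is shown with the first 20 nt of exon 11 in capitals because its ends read as splice sites.
Vmp1 segment before exon 11, chr11:86586579-86586671, minus strand: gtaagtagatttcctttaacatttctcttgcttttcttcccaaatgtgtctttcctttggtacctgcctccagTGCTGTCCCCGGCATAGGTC
It opens with gtaag and closes with ag after a stretch rich in pyrimidines, letters common at the ends of introns. As background, Vmp1 overlaps the gene of the microRNA miR-21, whose precursor transcripts can start inside a late intron of Vmp1. The Mir21a hairpin (RefSeq, GRCm38.p6, 86584067 to 86584158, minus strand) lies in exon 12, the last one, after the stop codon. Its level was not measured here.

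Atg16l1 (ENSMUSG00000026289.15, chromosome 1, 87755870 to 87792428, plus strand) had more of its shortest form in AAV-Cre cells. Exons 8 (87774813 to 87774869) and 9 (87775081 to 87775128) are alternative, and exon 10 can be entered from exon 7, 8 or 9. Skipping of both, by the junction from exon 7, had a PSI of 0.526 in AAV-GFP cells and 0.855 in AAV-Cre cells. Entry from exon 8 had 0.440 and 0.142, and the one from exon 9 had 0.034 and 0.003. For the entry from exon 9 the change in the authors' deposited table was only -0.001. Together the 2 inclusion routes held 0.474 in AAV-GFP cells and 0.145 in AAV-Cre cells. In AAV-GFP skipping and inclusion were thus near balance, while in AAV-Cre most reads skipped both exons. All 3 junctions are annotated, each in a coding transcript that holds neither of the others. Atg16l1 was in no event of junction usage.

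Unlike the skipped exons of Clcn7 and Cd68, exons 8 and 9 of Atg16l1 keep the frame. They hold 57 nt (19 codons) and 48 nt (16 codons), and their removal leaves open reading frames of 623, 607 and 588 codons with both exons, with exon 8 only and with neither. The stop codon stays in exon 19 of 19 in each. These forms differ in a stretch between the coiled coil, where Atg16l1 pairs with itself, and the WD repeats at its end.

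**Figure D4:**
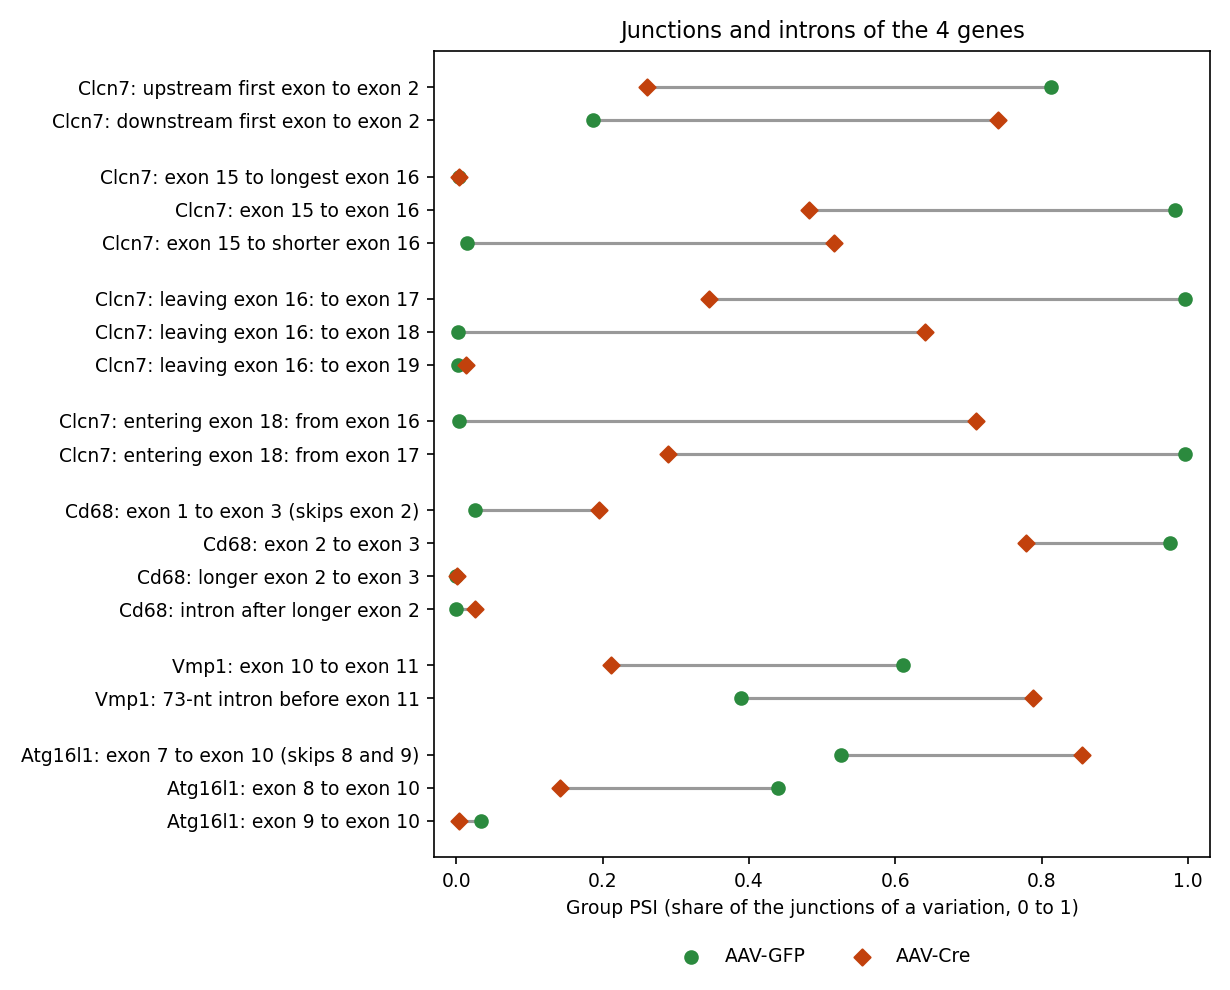
Every junction and intron of the 4 genes (rows, grouped by variation) with its group PSI on the x axis, circles for AAV-GFP and diamonds for AAV-Cre. Lines show the difference, from none in the junction to the longest Clcn7 exon 16 (0.003 in both groups) to 0.706 at the entry to Clcn7 exon 18.

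Across the 4 genes, 13 of 19 junctions and introns changed by at least 0.2 in the deposited values, 6 of them higher and 7 lower in AAV-Cre. Over all 6866 the share was 22.3%, with 11.1% higher and 11.2% lower, and nothing is read from the members' count, since they were chosen on it. Leaving out introns, 3 of the 5 junctions that were higher are not in GENCODE vM21, all in Clcn7, where the join of exons 16 and 18 counts in 2 variations, beside 58.1% of the 677 such junctions in the whole table. None of the 7 lower ones is missing from the annotation, beside 48.8% of 735. Variations hold more junctions each in the whole table (6866 in 862) than in the 4 genes (19 in 7). The shares are thus not like for like, and nothing is read from them. By junction usage, 2 of the 4 events passed (q of at most 0.05 with a change of at least 0.1), the first exons of Clcn7 and exon 2 of Cd68, beside 11.4% of all 498 events. The other 2, both in Clcn7, had larger changes than that of Cd68 but did not pass. Both tables come from the same libraries, so neither is independent support of the other.

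Among 251 genes of the lysosome and of autophagy, 14 were listed with local splicing variations and each of these reached a change of 0.2, as did 100.0% of the 354 listed genes. They include the 4 genes described above, and 10 others had their largest changes between 0.213 and 0.816. The lists are not complete. Tcirg1 (largest change 0.239) and Sidt2 (0.376), for example, also belong to the lysosome and lie outside them. By junction usage 13 of the 251 were listed, and only Clcn7 and Cd68 passed. The lists were written with earlier results of these data known, and 237 of the 251 genes had no listed variation, among them Ostm1, the partner of Clcn7. A gene without a listed variation may be unchanged or may not have been measured. How many genes could have been listed is not given, so nothing is read from the counts per list.

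Of 45 genes of the lysosomal membrane and of acidification 4 had a changed variation, Clcn7, Cd68, Lamp2 and Atp6v1h. Lamp2, a membrane protein whose isoforms differ in their last exon and serve different forms of autophagy, joined exon 8 to the more distant of its 2 main last exons (end at 38405571 on chromosome X) at a PSI of 0.258 in AAV-GFP cells and 0.043 in AAV-Cre cells. The join to the nearer one (38421851) had 0.742 and 0.946, so the form that was already the main one took a larger share. Atp6v1h, a subunit of the proton pump, joined exon 2 to the longer of its overlapping annotated first exons (chromosome 1, 5083110 to 5083625, against 5083080 to 5083278) at 0.040 and 0.345. Of 58 hydrolases and cofactors, Dpp7, a lysosomal peptidase, was the only one, with the junction from exon 8 to exon 9 at 0.954 and 0.162 and a 70 nt intron retained at 0.001 and 0.404.

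Of 46 core autophagy genes 5 had a changed variation, Vmp1, Atg16l1, Atg2a, Wdr45b and Atg4d. Atg2a, a lipid transfer protein that feeds the growing membrane, retained a 230 nt intron between exons 36 and 37 (chromosome 19, 6258634 to 6258863) at 0.011 in AAV-GFP cells and 0.317 in AAV-Cre cells. Wdr45b, a phosphoinositide-binding protein, joined exon 6 to the annotated acceptor of exon 7 at 0.581 and 0.814, and to an acceptor further on that is not annotated (121330198 on chromosome 11) at 0.415 and 0.167. The largest change in Atg4d, a protease that trims LC3 proteins, was at the junction from exon 9 to 10, from 0.256 to 0.049. The other junctions of its variation are in no annotated transcript of the gene, and most start beyond the end of exon 9. This PSI is thus not a share among the ways to leave exon 9, and no change in the joining of exons 9 and 10 is read from it.

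Autophagy receptors had 2 of 20 genes with a changed variation, both outside the 4. Nbr1, a receptor for ubiquitin-tagged cargo, joined exon 16 to exon 18, past exon 17, at 0.291 in AAV-GFP cells and 0.552 in AAV-Cre cells, and entered exon 2 from another first exon at 0.010 and 0.266. Retreg1, a receptor for the endoplasmic reticulum, entered the exon at 25964224 (chromosome 15) from the exon that ends at 25941243 at 0.422 and 0.782 and from the one that ends at 25940950 at 0.401 and 0.093. Of 34 genes of lysosomal signalling Bloc1s1, a subunit of complexes that position lysosomes, had a 65 nt segment listed as an intron at 0.251 and 0.497. Of 48 traffic genes Chmp2a, a subunit of the ESCRT-III complex, used the annotated donor of most of its transcripts at 0.753 and 0.976.

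**Figure D5:**
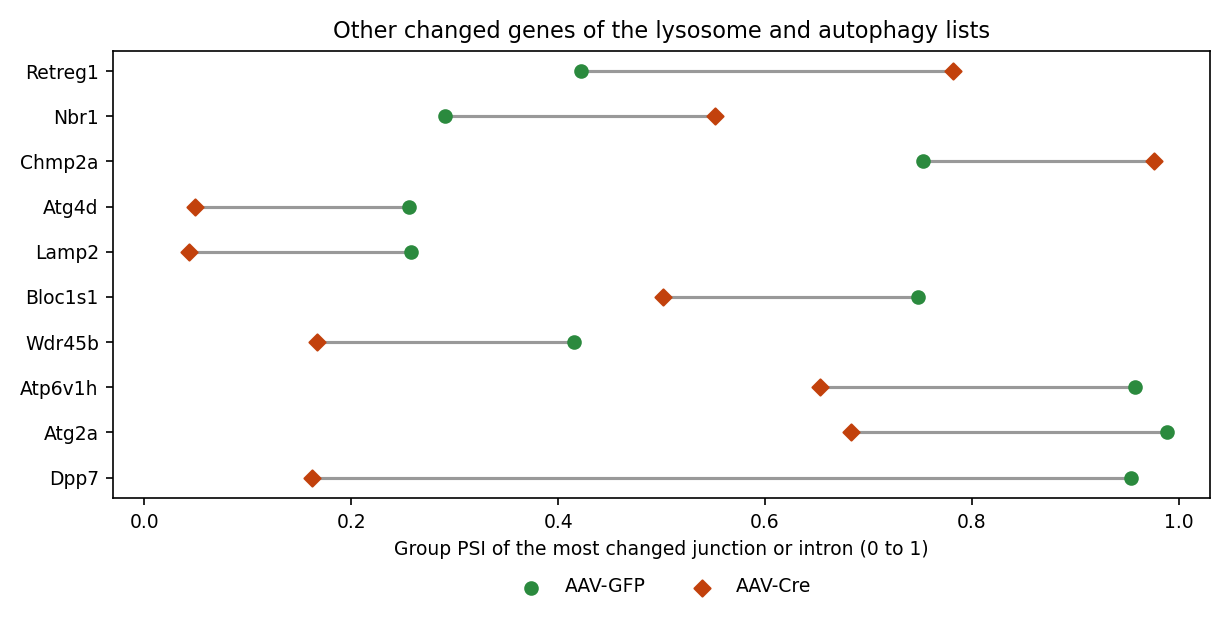
Group PSI (x axis) of the most changed junction or intron of the 10 other genes of the lists with a changed variation, circles for AAV-GFP and diamonds for AAV-Cre. Dpp7 has the widest gap, 0.954 and 0.162, and the others differ by less than the 0.399 of Vmp1.

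Variations of the lists held 6 introns, of which 4, in Vmp1, Atg2a, Bloc1s1 and Dpp7, were higher in AAV-Cre by at least 0.2 and none was lower by as much. Over all 212 listed variations with an intron, 41.0% were higher and 15.1% lower by this size, so introns were more often higher than lower in the whole table too. In Vmp1 and Bloc1s1 the listed segment, of 73 and 65 nt, is only a part of the intron that the junction removes, while in Atg2a and Dpp7, with 230 and 70 nt, it is the whole intron.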

How the data were processed

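Libraries of stranded mRNA gave paired reads, per the labels' protocols. FastQC, STAR and the build mm10 are named in the submitters' processing notes without roles, and with no version given in the sources used here. One table has VOILA's layout (MAJIQ) and gives the expected PSI of each group, a fraction, and its expected change, both by the authors, per the file headers. The change was deposited as AAV-GFP minus AAV-Cre and its sign was turned; it then correlated at 0.996 with the difference of the PSI values. A probability column was left out because its values went against its header. The other table, from JUM, holds the events with p under 0.05 and the authors' p-values and q-values, per the file headers; 63 of 498 had no finite change.

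The tables used here hold no value per library, so no test was run. The labels do not say whether the libraries of a group are separate animals, so the authors' p-values may measure technical spread only. The 4 genes, the gene lists and the thresholds were chosen with earlier results of these data known. A variation was called at a deposited change of at least 0.2, an event at a q of at most 0.05 and a change of at least 0.1. Named genes were the 4, Srsf3, and up to 4 further changed genes per list. Events of both tables were matched within 2 nt. The gene version of Clcn7 differs between the table and GENCODE vM21, which gave exons, transcripts and sequences; 250 of 251 list genes were found there. The calls and signs of local variations and the search for the first stop codon were tested on simulated data. The calls of usage events and the removal of exons from a reading frame were not. Computation used Python 3.11.15, pandas 2.3.3, numpy 2.4.6 and matplotlib 3.10.9.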

Additional observations from a re-analysis of the deposited data

How the results depend on the processing

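For the 4 genes, 7 variations were called at a change of at least 0.2, 7 at 0.1 and 6 at 0.3, where Cd68 was lost, and 7 with annotated junctions and introns only. With the difference of the 2 deposited PSI values in place of the deposited change, an alternative chosen after seeing the data, 6 were called, since Cd68 had a difference of 0.196 against a deposited change of 0.202. Of their 4 events of junction usage 2 passed, and 2 without a size threshold; with the authors' p below 0.05 in place of q all 4 passed, as the table holds only such events, and with a change of at least 0.2 only 1 did, the first exons of Clcn7. Over the 251 list genes, 14 had a changed variation at 0.2 and 14 at 0.1, but 6 at 0.3 (Atg16l1, Atp6v1h, Clcn7, Dpp7, Retreg1 and Vmp1). By junction usage 2 list genes passed, 8 with p in place of q and 1 with a change of at least 0.2. No paired analysis was possible because the tables hold no value per library, and for the same reason no library could be left out. Without counts per junction, the precision of each PSI is unknown.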
